A study of Arabidopsis thaliana with 6 samples.

Results

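The core circadian clock of Arabidopsis thaliana was followed in flower buds through 10 genes: CCA1 (AT2G46830), LHY (AT1G01060), PRR9 (AT2G46790), PRR7 (AT5G02810), PRR5 (AT5G24470), TOC1 (AT5G61380), GI (AT1G22770), ELF3 (AT2G25930), ELF4 (AT2G40080) and LUX (AT3G46640, listed as PCL1 in the RefSeq table). They were chosen by locus for their place in the clock, among 32627 genes with values. All 6 samples were inflorescences of the accession Landsberg erecta (Ler) carrying 35S::SUP-GR. In this transgene a viral promoter, active in most tissues, drives SUPERMAN, a zinc-finger regulator of flowers, fused to the steroid-binding part of the glucocorticoid receptor. The DEX group, 3 arrays, had its inflorescences dipped for 1 min in 10 µM dexamethasone, the steroid that releases such fusions into the nucleus, a dose whose unit is garbled in the labels and was taken as micromolar. The Mock group, also 3 arrays, had ethanol alone, and Silwet L-77 at 0.015% was in both solutions. Sampling followed after 4 hours and was limited to buds before stage 10, from plants kept at 22 °C in constant light. Dipped plants without the transgene were not analysed here, so an effect of dexamethasone and one of the fusion protein cannot be told apart. The plants' age, the hour of sampling, any earlier day-night cycle, the number of transgenic lines and the number of plants pooled were not stated by the submitters' labels.

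The plant clock is a ring of repressors that act in turn through the day. The MYB-like proteins CCA1 and LHY are made around dawn and repress evening genes, the pseudo-response regulators PRR9, PRR7, PRR5 and TOC1 follow in sequence and repress CCA1 and LHY, and an evening complex of ELF3, ELF4 and LUX represses morning genes at night. Once set by day and night, the ring keeps running in constant light. A shift of clock phase between samples can move morning and evening genes in opposite directions, depending on the hour of sampling.

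Values are RMA intensities, a normalized brightness per array feature, and differences are DEX minus Mock on the log2 scale from limma, with the standard error (SE) and the p adjusted over all 32627 genes. Array medians lay between 74.2 and 77.3. With 3 arrays a group, precision is limited by their number. The sources speak of 3 independent sets of Mock and DEX samples without saying whether plantings or harvests were separate. The p-values then describe the spread among these samples alone, which may be technical. Whether replicate numbers mark these sets is not stated, and the fit used no pairing. The labelled tissue showed its markers: all 6 floral genes checked (AP1, AP3, PI, AG, LFY and SEP3) were brighter than the median gene. Their summed intensity was 4761 to 5078 in Mock and 3837 to 4070 in DEX, without overlap. All 6 differences, DEX minus Mock, were below 0, from -0.10 for AG to -0.82 for LFY. LFY had the smallest p of the 6 (limma adjusted p = 0.251), and none passed. Of 3 genes of mature pollen, which belongs to flowers past the sampled stages, 2 (VGD1 and VGDH1) were also brighter than the median gene. The summed intensity of the 3 was 471 to 684 in Mock and 437 to 578 in DEX, and none of the markers was at 0. The part of these markers in the differences below was not tested, and in whole buds fewer cells of a type and less RNA per cell cannot be told apart.

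None of the 10 core clock genes passed between DEX and Mock (limma, adjusted p from 0.725 to 0.958), where 0.0521% of all genes did. None reached an unadjusted p under 0.05 either, against 10.4% of all genes. Of the 10 differences, 7 were below 0 and 3 above, with a median of -0.04, beside 0.01 for all genes. The median size of the difference was 0.07 for the core genes, 0.12 for genes brighter than the median gene and 0.19 for all genes. With PRR9 set aside, every 95% interval of a core gene's difference lay between -0.67 and 0.51, which corresponds to a DEX level between 0.629 and 1.43 times that of Mock. Larger changes of these 9 genes, as read by the brightest feature of each locus, fall outside those intervals. The intervals are not adjusted for the number of genes. In the fit over features, dimmer features had intervals reaching further, at 0.95 to 2.26 for feature 3 of LHY and -0.76 to 0.48 for feature 1 of LUX. The plot of intensities by sample shows how closely the groups overlapped.

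**Figure D1:**
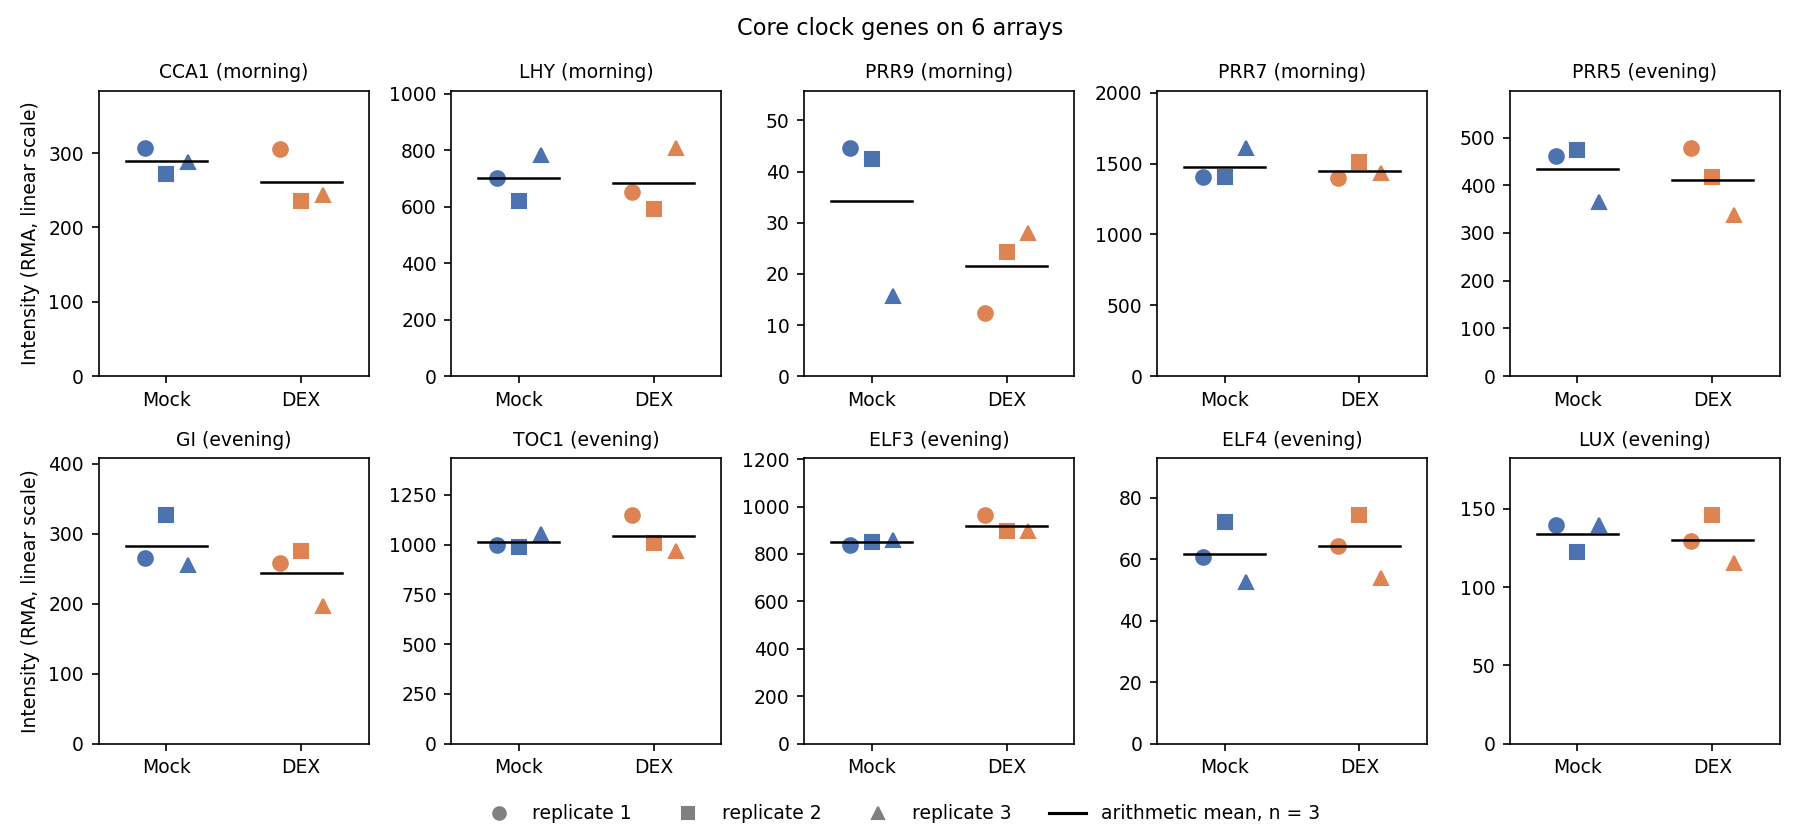
Intensity (RMA, linear scale from 0) of the 10 core clock genes on 3 Mock and 3 DEX arrays, one panel per gene, with marker shapes for replicate numbers and a line at the arithmetic mean of each group. The groups overlap in every panel except that of ELF3, where the 3 DEX arrays sit at 896 to 964 and the 3 Mock arrays at 838 to 861.

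No difference past the threshold was seen in the dawn pair. CCA1, a MYB-like repressor that peaks at dawn, read 307, 272 and 288 on Mock replicates 1, 2 and 3 and 305, 236 and 244 on the DEX replicates. DEX replicate 1 lay within the Mock range while the other DEX arrays lay below it. Mean log2 intensity was 8.17 ± 0.09 for Mock and 8.02 ± 0.20 for DEX (SD, n = 3). The difference was -0.15 (SE 0.14, limma adjusted p = 0.760, 95% interval -0.50 to 0.20). LHY, its close relative with a largely shared role, read 701, 618 and 784 in Mock and 653, 591 and 809 in DEX. The highest and the lowest array were both DEX arrays, so the groups overlapped fully. The difference was -0.04 (SE 0.17, limma adjusted p = 0.953, 95% interval -0.46 to 0.37). LHY has a second feature with values, feature 3, which was dim at 1.01, 0.649 and 0.797 in Mock and 1.90, 2.35 and 3.29 in DEX. These values did not overlap and differed by 1.60 (SE 0.26), but did not pass over all features (limma adjusted p = 0.148). With 16 added to each intensity the same feature differed by 0.14. Of the 16 deposited features of the core loci, 13 held values and 3 were empty on every array, namely features 2 and 4 of LHY and feature 2 of CCA1.

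The pseudo-response regulators, which repress CCA1 and LHY from morning to night, included the most scattered core gene, PRR9, and a steady one, PRR7. PRR9, the earliest of the series and a gene induced by light, read 44.7, 42.4 and 15.6 in Mock and 12.3, 24.4 and 28.0 in DEX. Mock replicates 1 and 2 were the highest and DEX replicate 1 the lowest, a 3.65-fold range, and Mock replicate 3 lay inside the DEX range. The difference of -0.61 had an SE of 0.53 (limma adjusted p = 0.741), and its 95% interval of -1.92 to 0.70 reaches down to 0.265 times the Mock level. A second PRR9 feature, feature 1, read 31.1, 19.0 and 11.0 in Mock and 9.07, 14.1 and 16.5 in DEX. Its difference was -0.54 (SE 0.43). Both features had their highest value on Mock replicate 1 and their lowest on DEX replicate 1. The median gene had an intensity of 72.9, above that of PRR9 on every array.

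PRR7, which acts from late morning, was far steadier, at 1405, 1408 and 1612 in Mock and 1397, 1511 and 1436 in DEX. Its 6 arrays spanned 1.15-fold and the difference was -0.02 (SE 0.11, limma adjusted p = 0.958). PRR5, which acts in the afternoon, read 462, 474 and 365 in Mock and 479, 418 and 337 in DEX. Replicate 3 was the lowest array of both groups, and the difference was -0.08 (SE 0.18, limma adjusted p = 0.913). TOC1, the evening member of the family, read 997, 988 and 1053 in Mock and 1148, 1009 and 968 in DEX. Mock lay inside the DEX range, and the difference was 0.04 (SE 0.11, limma adjusted p = 0.936).

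GI, a large protein that stabilises the F-box protein ZTL and links the clock to flowering, read 265, 326 and 255 in Mock and 258, 276 and 197 in DEX. DEX replicate 3 was lower than every Mock array and the other DEX arrays were within the Mock range. The difference of -0.22 (SE 0.18, limma adjusted p = 0.725, 95% interval -0.67 to 0.23) had the smallest p of the 10 genes.

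The evening complex showed no difference past the threshold in any of its subunits. ELF3, its scaffold and a sensor of temperature, read 838, 850 and 861 in Mock and 964, 897 and 896 in DEX. Each DEX array lay above each Mock array, which made ELF3 the 1 core gene without overlap between groups; groups did not overlap for 17.9% of all genes, and for 8.74% with DEX higher. The difference was 0.11 (SE 0.10, limma adjusted p = 0.739, 95% interval -0.13 to 0.35). ELF4, a small protein that strengthens the complex, read 60.6, 72.1 and 52.5 in Mock and 64.5, 74.4 and 53.9 in DEX, and was dimmer than the median gene. The 2 groups nearly coincided, with a difference of 0.06 (SE 0.18, limma adjusted p = 0.939). LUX, the MYB-like subunit that binds DNA, read 139, 122 and 139 in Mock and 130, 146 and 115 in DEX. DEX held both the highest and the lowest array, and the difference was -0.04 (SE 0.13, limma adjusted p = 0.940). A dimmer LUX feature, feature 1, differed by -0.14 (SE 0.25) in the fit over features.

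**Figure D2:**
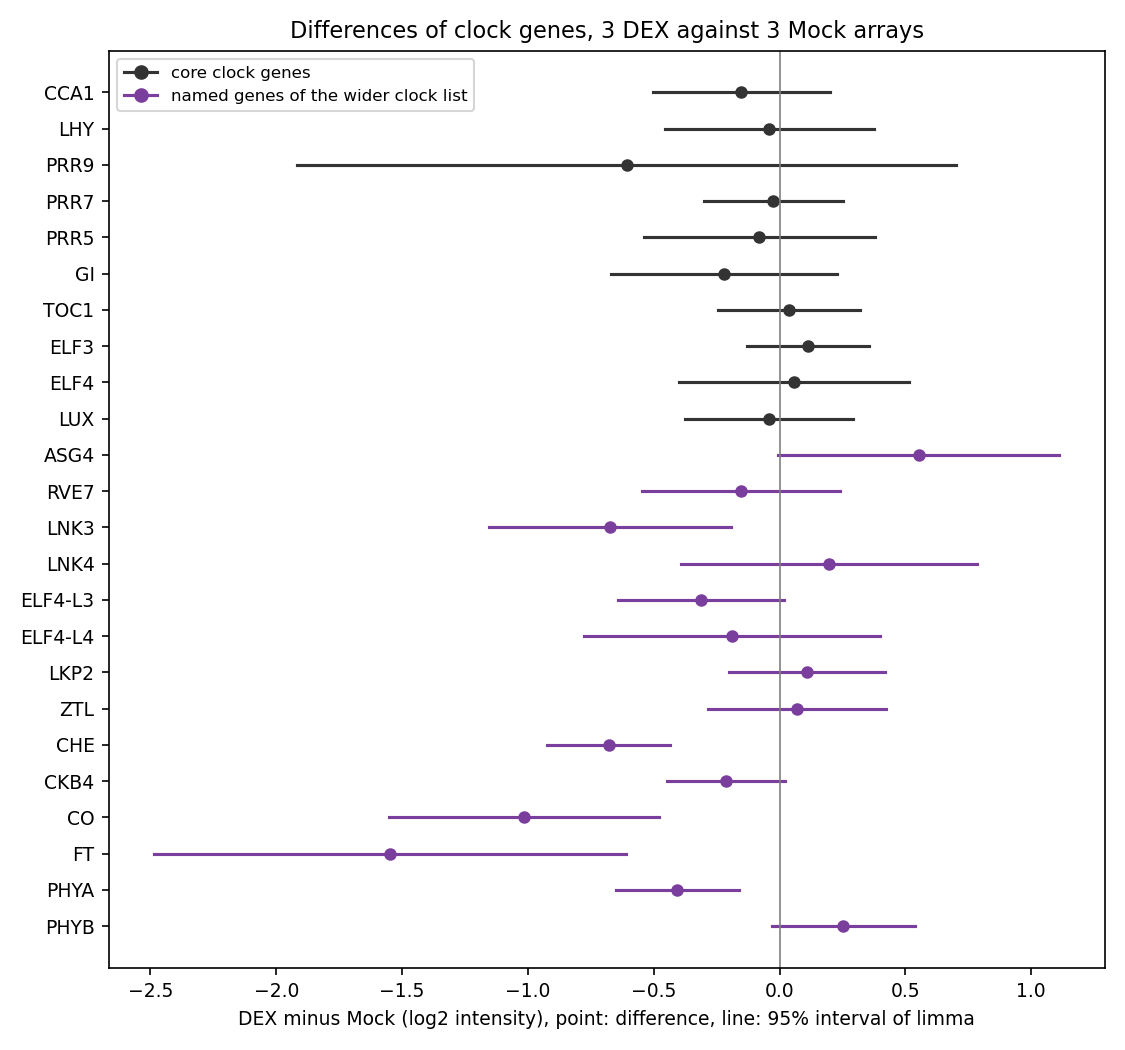
Difference DEX minus Mock (log2 intensity, horizontal axis) with its 95% interval from limma, for the 10 core clock genes and the 14 named genes of the wider clock list. Every core interval includes 0, and that of PRR9, from -1.92 to 0.70, is the widest of the core genes.

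Because different genes are read by different probes, levels of morning genes were not set against levels of evening genes, and the median gene serves only to mark dim features. Morning and evening genes were compared through each gene's deviation from its own mean over the 6 arrays. The mean deviation of the 4 morning genes (CCA1, LHY, PRR9 and PRR7) minus that of the 6 evening genes (PRR5, TOC1, GI, ELF3, ELF4 and LUX) was 0.228, 0.0529 and -0.00454 on Mock replicates 1, 2 and 3, and -0.34, -0.19 and 0.25 on the DEX replicates. DEX replicates 1 and 2 leaned toward evening genes, while DEX replicate 3 leaned toward morning genes more than any other array. The group mean was 0.09 ± 0.12 for Mock and -0.09 ± 0.30 for DEX (SD, n = 3). Their difference of -0.18 was smaller than the SD of the DEX arrays. It was 0.04 when the features of each locus were averaged, which moved LHY from -0.04 to 0.78 through its dim feature 3. Before such averaging, PRR9 moved this measure most, with a deviation of -1.03 for DEX replicate 1 and 0.83 for Mock replicate 1.

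Without PRR9, and with CCA1 and LHY set against TOC1, GI, ELF4 and LUX only, the values were 0.09, -0.18 and 0.17 in Mock and -0.00350, -0.334 and 0.254 in DEX. The group difference was -0.06, beside SDs of 0.18 in Mock and 0.29 in DEX. In both groups replicate 2 was the lowest array and replicate 3 the highest. These measures are descriptions with no test, and whether clock phase differed between the groups was not tested.

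**Figure D3:**
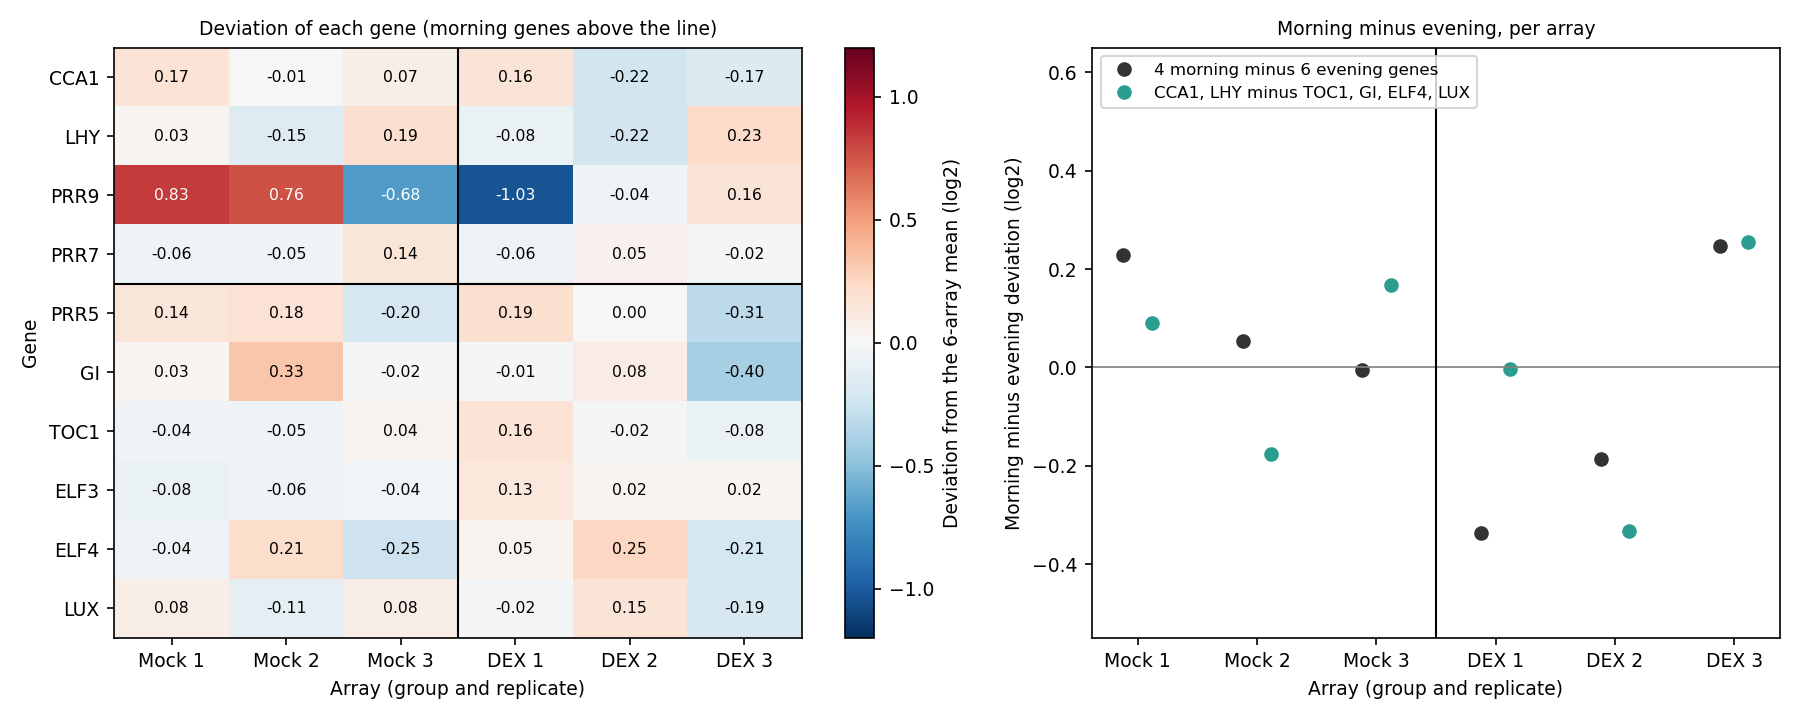
Left, deviation of each core clock gene (rows) from its 6-array mean on each array (columns), in log2 units, with morning genes above the line; right, on each array, the mean deviation of the 4 morning genes minus that of the 6 evening genes (black), and that of CCA1 and LHY minus that of TOC1, GI, ELF4 and LUX (green). PRR9 runs from -1.03 to 0.83; the green points are lowest on replicate 2 and highest on replicate 3 in both groups, and the black points are not.

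Several core genes moved alike on the Mock and DEX arrays of the same replicate number, a pattern noticed after the values were seen and not tested. The order of the 3 numbers was the same in Mock and DEX for 4 of the 10 core genes, CCA1, LHY, GI and ELF4. It was the same for 20.0% of all genes and 22.0% of genes brighter than the median gene, so with 10 genes the count is given as a description. LHY was lowest on replicate 2 (deviations of -0.15 in Mock and -0.22 in DEX) and highest on replicate 3 (0.19 and 0.23). ELF4 ran the other way, highest on replicate 2 (0.21 and 0.25) and lowest on replicate 3 (-0.25 and -0.21). GI was also highest on replicate 2 (0.33 and 0.08) and lowest on replicate 3 (-0.02 and -0.40). CCA1 shared with LHY the low value on replicate 2, at -0.01 in Mock and -0.22 in DEX, but was highest on replicate 1.

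FKF1, a light-sensing F-box protein of the afternoon, had the ELF4 order, at 515, 565 and 415 in Mock and 519, 555 and 400.3 in DEX. The morning MYB-like gene RVE2 was highest on replicate 3 in both groups, at 726 in Mock and 704 in DEX. FKF1 and RVE2 were not taken by the rule for named genes, and were picked once their values were known. Among the 51 wider clock genes the order was shared by 10, close to the share over all genes. FKF1 had the ELF4 order, AT4G01280 the LHY order, and PRR3, JMJD5 and CAT2 the CCA1 order. RVE1, RVE2, ZTL, FIO1 and CKB3 were lowest on replicate 1 and highest on replicate 3 in both groups. The core genes TOC1, PRR5, PRR7, PRR9, ELF3 and LUX had different orders in Mock and DEX. The hour at which each set was taken is not given, and whether the sets differed in hour was not tested.

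**Figure D4:**
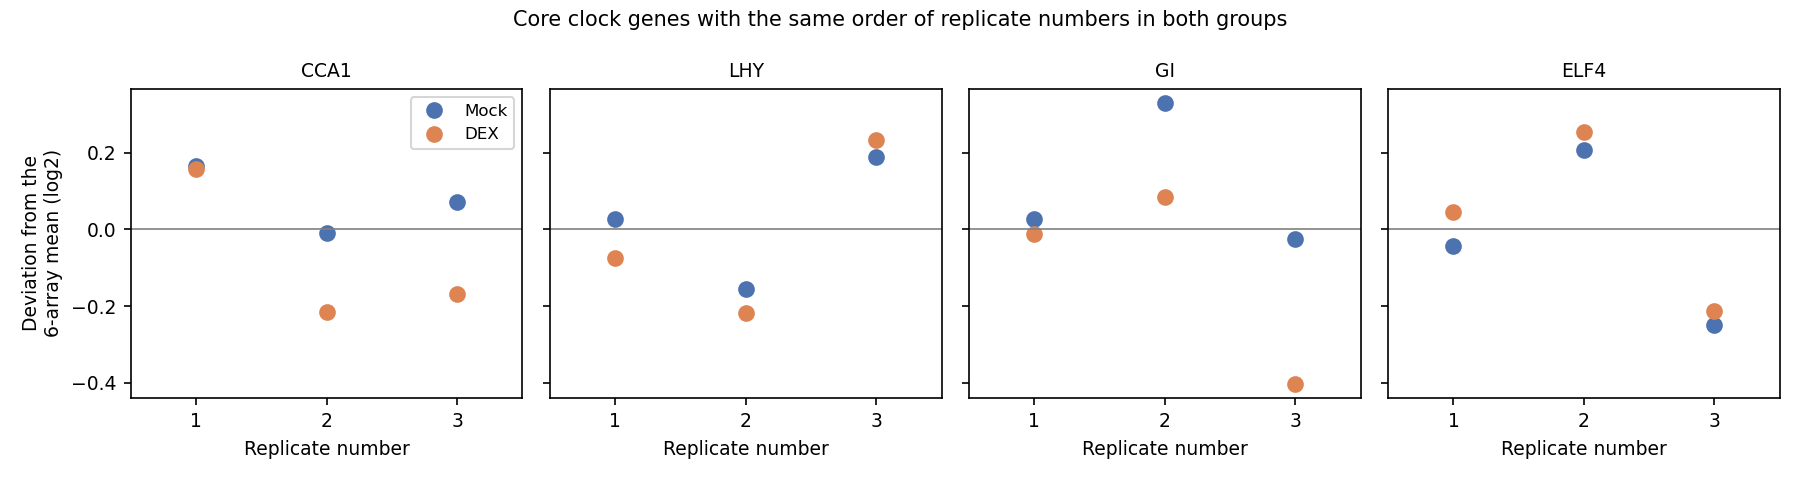
Deviation from the 6-array mean (log2, vertical axis) by replicate number for CCA1, LHY, GI and ELF4, the 4 core genes whose order of replicate numbers is the same in Mock and DEX. LHY is highest on replicate 3, at 0.19 and 0.23, where ELF4 is lowest, at -0.25 and -0.21.

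The wider clock list held 51 genes in 7 classes, taken by locus with earlier results of these data known. None passed (limma, adjusted p from 0.121 to 0.978), and 5 reached an unadjusted p under 0.05, near the 10.4% of all genes that did. These 5 (CHE, CO, FT, PHYA and LNK3) were all lower in DEX, where 5.92% of all genes were lower at that level. The median difference of the list was -0.03, and its median size was 0.12, as for genes brighter than the median gene. The groups did not overlap for 12 of the 51, with 8 lower and 4 higher in DEX, beside 9.20% and 8.74% of all genes.

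**Figure D5:**
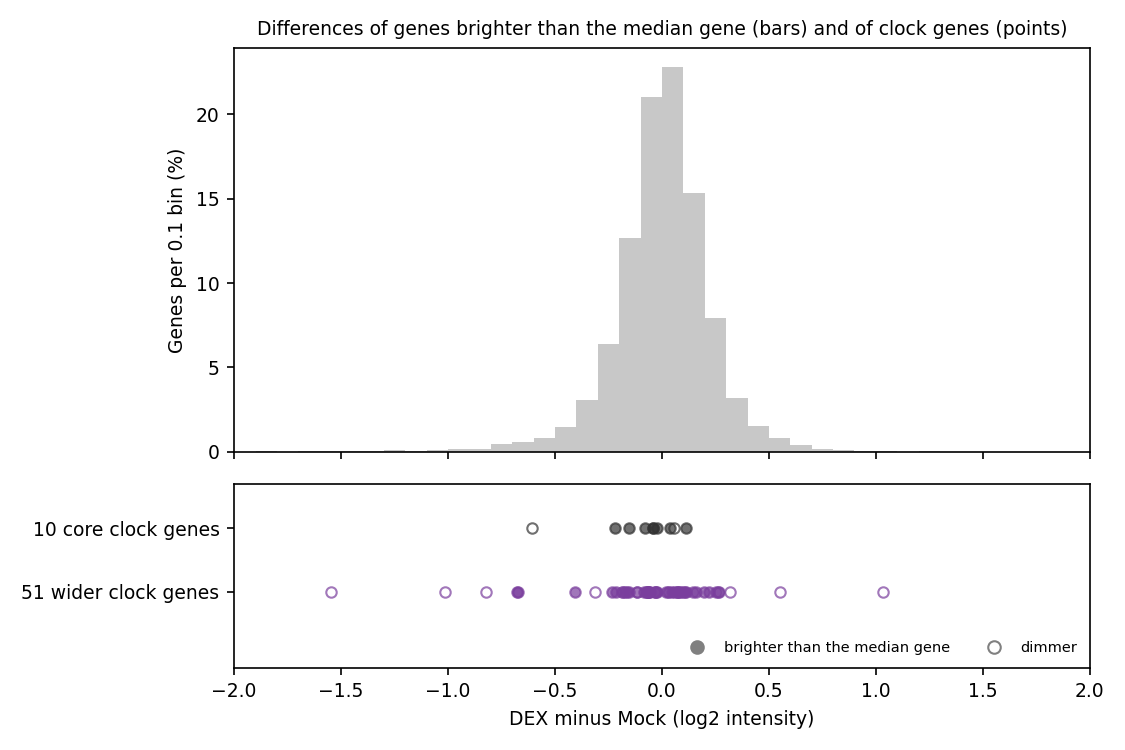
Top, share of genes brighter than the median gene in each bin of DEX minus Mock (log2); bottom, the same difference for each core and wider clock gene, filled where the gene is brighter than the median gene; the axis runs from -2 to 2, and a few bar genes lie beyond it. Core genes other than PRR9 sit between -0.22 and 0.11, and the wider list reaches from -1.55 to 1.03 through dim genes.

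CHE (AT5G08330), a TCP protein that binds the CCA1 promoter and represses it, was the member with the smallest p. It read 493, 480 and 528 in Mock and 306, 314 and 315 in DEX. Every DEX array was below every Mock array, with the DEX mean at 0.624 times the Mock mean. The difference was -0.68 (SE 0.10, limma adjusted p = 0.121, 95% interval -0.93 to -0.43). CHE passed when genes below the median intensity were left out (limma adjusted p = 0.00981), a setting that called 1.73% of the genes it tested. It passed when 16 was added to each intensity (limma adjusted p = 0.0213; 0.625% of genes called) and with the trended and robust prior (limma adjusted p = 0.00323; 1.32% of genes called). CHE did not pass with the replicate block (limma adjusted p = 0.323), quantile normalization (0.127), median centring (0.124) or array weights (0.116). Without the dimmest 25% of genes its limma adjusted p was 0.0514, and without any 1 array it was 0.231 or more. CCA1, the known target of CHE, was at -0.15 as given above.

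Among the clock-controlled output genes, CO and FT had the smallest p, and neither passed. CO, the day-length regulator that switches on FT in leaves, read 86.3, 69.0 and 73.5 in Mock and 35.5, 30.2 and 49.5 in DEX. The groups did not overlap and the difference was -1.02 (SE 0.22, limma adjusted p = 0.238). A second, dim CO feature pointed the other way, at 0.45 (SE 0.41) in the fit over features, and with the mean of its features CO was at -0.28 (limma adjusted p = 0.692). FT, the mobile flowering signal, was dim at 16.4, 7.76 and 12.3 in Mock and 2.75, 5.63 and 4.07 in DEX. Its difference of -1.55 (SE 0.38, limma adjusted p = 0.278) was -0.47 with 16 added. Of the 13 output genes, 8 were above 0 and 5 below, with a median of 0.11. The highest, AT1G69570 at 1.03 (SE 0.76), was dim, and it is named after its value was seen. The count by sign depended on the feature that stood for each locus. GRP8 was at -0.07, while its other features were at 0.52, 0.37 and -0.23 in the fit over features. CAT2 was at 0.16, while a dim CAT2 feature was at -0.41. Both genes are named after their values were seen.

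The photoreceptors that set the clock to light differed in sign. PHYA, the far-red light receptor, read 1297, 1266 and 1200.0 in Mock and 939, 978 and 922 in DEX, without overlap, a difference of -0.41 (SE 0.10, limma adjusted p = 0.276). It passed with the trended and robust prior (limma adjusted p = 0.0199), a setting that called 1.32% of all genes. PHYA did not pass with the replicate block (limma adjusted p = 0.401), without genes below the median intensity (0.0668) or with 16 added (0.0754). PHYB, the main red light receptor, read 688, 733 and 776 in Mock and 911, 798 and 910.0 in DEX, also without overlap, a difference of 0.25 (SE 0.11, limma adjusted p = 0.530). The blue light receptors CRY1 and CRY2 completed the class, at 0.10 (SE 0.11) and 0.14 (SE 0.14). Another CRY2 feature, nearly as bright, was at 0.00145 (SE 0.11) in the fit over features.

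The 4 LNK genes encode partners of RVE proteins that activate evening genes. LNK3 read 196, 171 and 130 in Mock and 118, 93.5 and 97.2 in DEX, all DEX arrays below Mock, a difference of -0.67 (SE 0.19, limma adjusted p = 0.346). LNK4 was at 0.20 (SE 0.24), and the class median was 0.06. Another LNK4 feature was at -0.02 (SE 0.19) in the fit over features. Of the 8 MYB-like genes related to CCA1 and LHY, 7 were below 0, with a median of -0.10. Over all 32627 genes, 16018 were below 0. The count of 7 depended on the feature that stood for each locus. In the fit over features, other features were above 0 for RVE7 (0.20), RVE8 (0.04), AT4G01280 (0.07) and AT5G52660 (0.16). Those of RVE4 were below 0 (-0.05 and -0.39). RVE7 was at -0.15 (SE 0.16) and the dim ASG4 at 0.55 (SE 0.22).

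The 5 relatives of evening complex subunits had a median of -0.07. ELF4-L3 was at -0.31 (SE 0.13) and ELF4-L4 at -0.19 (SE 0.24), while a dimmer ELF4-L4 feature was at 0.69 (SE 0.19, limma adjusted p = 0.333). The 3 light-sensing F-box genes, whose products mark clock proteins for breakdown, ranged from -0.02 to 0.11. LKP2 was at 0.11 (SE 0.13) and ZTL at 0.07 (SE 0.14). Another ZTL feature was at -0.02 (SE 0.12) in the fit over features. Among the 14 other clock regulators, with a median of -0.03, CKB4, a regulatory subunit of casein kinase 2, followed CHE at -0.21 (SE 0.09, limma adjusted p = 0.517). A second CKB4 feature was at 0.08 (SE 0.13), and with the mean of both features CKB4 was at -0.07.

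The genes most alike to CCA1 and TOC1 over the 6 arrays were sought among the 16305 genes outside the core list that were brighter than the median gene. Likeness was the root-mean-square difference of the 2 genes' deviations, in log2 units. For CCA1 the nearest were AT1G11050 (0.0324), AT3G13882 (0.0480) and AT1G80550 (0.0485). For TOC1 they were MBD11, a protein with a methyl-CpG-binding domain (0.0140), AT5G61228 (0.0209) and GRP7 (0.0251), a clock-controlled RNA-binding protein that is also in the wider list. GRP7 read 1807, 1724 and 1822 in Mock and 1991, 1805 and 1689 in DEX, highest on DEX replicate 1 and lowest on DEX replicate 3, as TOC1 was. With 6 arrays and so many candidates, these names are a description.

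Neighbouring members were seen in the RefSeq gene table. PRR9 and CCA1 lie on chromosome 2 with 3 listed genes between them, and PRR7 and RVE4 on chromosome 5 with 4 between them. Neither pair held a gene past the threshold: PRR9 was at -0.61 and CCA1 at -0.15, and PRR7 was at -0.02 and RVE4 at -0.09.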

How the data were processed

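Total RNA, treated with DNase on the column, was labelled with Cy3 for NimbleGen arrays, per the labels' protocols. The authors deposited linear intensity made with RMA, per the submitters' processing notes; values ran from 0.482 to 3642.22. The RMA version, its background step, the probe design and the authors' genome build are not given in sources used here. Of 39640 rows, 2522 held no value on any array, which left 37118 features. Intensities were turned to log2 without a pseudocount, and the feature with the highest mean stood for its locus, which gave 32627 genes. Symbols came from the RefSeq table of assembly TAIR10.1, which matched 31993 loci.

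DEX was compared with Mock by limma 3.58.1 in R 4.3.3 (lmFit, eBayes with the default prior, two-sided, Benjamini-Hochberg over all genes, threshold 0.05, no filter and no block). The 95% intervals use the fit's moderated standard errors. The stated design allowed for log2 or linear values, and log2 was taken because they were linear. The fit was tested on simulated data. Other settings were a replicate block, 2 filters on dim genes, 2 normalizations, 16 added to each intensity, a trended and robust prior, array weights, the mean of a locus's features, single features, other thresholds and leaving out each array. The prior combined with the block was added after the data were seen.

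Core genes were all named; in each wider class the 2 genes with the smallest unadjusted p and any gene past the threshold were named, and for CCA1 and TOC1 the 3 most alike genes. The members and lists were chosen with earlier results of these data known. No sequences of the members were used here.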

Additional observations from a re-analysis of the deposited data

How the results depend on the processing

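No core clock gene passed in any setting: the count stayed 0 under every alternative run, both other thresholds included, and 0 to 0 without any 1 array. The lowest adjusted p of a core feature in any setting was 0.148, for feature 3 of LHY. PRR9 and ELF4 could not be tested without genes below the median intensity. Signs of small core differences were not stable. With the mean of its features LHY was at 0.78, through the dim feature 3, which on its own was at 1.60. Leaving out 1 array gave ranges of -0.168 to 0.0578 for LHY, -0.0347 to 0.0882 for TOC1, -0.201 to 0.0552 for PRR5, -0.0582 to 0.0411 for PRR7, -0.0548 to 0.178 for ELF4, -0.127 to 0.0439 for LUX, and, in the wider list, -0.345 to 0.0570 for ELF4-L4 and -0.0122 to 0.159 for ZTL. PRR9 ranged from -1.10 to -0.24 and kept its sign. With the mean of features ELF4-L4 was at 0.25 and RVE7 at 0.0232. The morning minus evening shift was -0.18 as reported and ranged from -0.35 to -0.06 without 1 array. It was 0.0379 with the mean of features, a change of sign in the setting where LHY was at 0.78 through its dim feature 3. Without genes below the median intensity, which leaves out PRR9 and ELF4, the shift was -0.0344.

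The count of wider clock genes called, 0 in the comparison as reported, was 1 without genes below the median intensity, 1 with 16 added, 2 with the trended and robust prior, 4 when that prior was joined with the replicate block and 5 at unadjusted p under 0.05; those 4 were CHE, PHYA, CO (adjusted p = 0.0343) and LNK3 (0.0379). The count was 0 with the replicate block alone and 0 to 0 without 1 array. Over all genes the count of 17 became 105 without the dimmest 25%, 282 without genes below the median, 204 with 16 added, 431 with the trended and robust prior, 750 with that prior and the replicate block, 96 at adjusted p under 0.1, 3401 at unadjusted p under 0.05, 0 with the replicate block alone and 0 to 0 without 1 array. Numbers shared between groups are not known to pair samples. Correlations across genes of same-numbered deviations from the group means were low, at 0.0277, 0.0634 and 0.0558. Between different numbers they ran from -0.0614 to 0.00429, so each array correlated best with its own number. With the replicate block no core gene passed (LHY adjusted p = 0.913, ELF4 0.871, GI 0.604). Read depth does not apply here; having 3 arrays a group limits every value.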
